A study of Mus musculus with 43 samples.

Results

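The unfolded protein response and the integrated stress response were followed in mouse brain through 10 genes, taken by symbol from the 55804 gene rows that both deposited TPM tables share. The genes are Hspa5, Herpud1, Xbp1, Atf4, Ddit3, Asns, Chac1, Sesn2, Atf3 and Trib3. All 10 had a row in both tables, and 8 of them passed the filter on low values (a mean of at least 1 TPM over all libraries of a table) in each table. Atf3 and Trib3 did not pass it in either table. Across the 6 group comparisons none of the 8 tested genes passed the test, whether the values were used as deposited or rescaled between libraries.

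The study asked what CDDO-2P-Im (2P-Im), a synthetic oleanane triterpenoid that induces the transcription factor NRF2, does in 2 mouse models of Alzheimer's disease, and its 43 brain RNA libraries form 2 cohorts. The first cohort held AppNL-G-F/NL-G-F (AppNLGF) mice at 6 months of age, homozygous for a knock-in App allele, with 13 libraries from mice given 2P-Im, 11 from mice given vehicle and 4 from vehicle-treated wild-type mice. The second held APPV717I::TAUP301L (APP/TAU) mice at 11 months, with 5 libraries after 2P-Im, 5 after vehicle and 5 from vehicle-treated wild-type mice. Oral dosing with 30 µmol/kg, 3 times a week, lasted 4 weeks in AppNLGF mice and 2 weeks in APP/TAU mice, and the vehicle was DMSO and Cremophor EL in PBS. The labels name the tissue only as brain. They give neither the promoter of the APP and TAU transgenes nor whether each library is a separate mouse, so a p-value reflects library-to-library spread that may in part be technical. Age, model and length of dosing differ together between the cohorts and cannot be told apart.

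Proteins that fold badly in the endoplasmic reticulum (ER) set off the unfolded protein response, in which the sensors ATF6, IRE1 and PERK raise the cell's folding and degradation capacity. HSPA5, also called BiP, is the main ER chaperone of the HSP70 family and holds the sensors inactive. PERK is also 1 of the kinases of the integrated stress response: they phosphorylate the initiation factor eIF2α, which slows translation in general and favours that of ATF4. ATF4 then switches on genes of amino acid supply and, under lasting stress, the factor CHOP, the product of Ddit3. Both arms are regulated partly after transcription, through translation of Atf4 and splicing of Xbp1 by IRE1, and TPM of a gene row do not measure either step. In cultured cells PERK can phosphorylate NRF2, and triterpenoids of the CDDO family have been reported to induce CHOP.

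The promoters of some of the genes carry short elements through which the 2 arms act, so windows that hold them are shown first. They are RefSeq sequences on GRCm38.p6, from 250 bases before to 50 bases after each annotated start, 5′ to 3′ on the gene's own strand, and all 10 genes had 1 such window. Searched on both strands, the ER stress response element (ERSE, CCAAT and CCACG separated by 9 bases), which ATF6 binds together with NF-Y, was present in 0.119% of 32851 windows of the same length. Among the 10 genes Hspa5 alone held it, 65 to 47 bases before the start. The second form of the element (ERSE-II, ATTGG and CCACG with 1 base between) was present in 0.0365% of windows and, among the 10, in Herpud1. The C/EBP-ATF composite element (CARE, TGATGNAAN), which ATF4 binds, was present in 3.95% of windows and in 5 of the 10, Asns, Chac1, Herpud1, Atf3 and Trib3. The windows of Ddit3, Atf4, Xbp1 and Sesn2 held no ERSE, ERSE-II or CARE. Hspa5 and the disulphide isomerase gene Pdia6, which varied most closely with Hspa5 apart from Sdf2l1, are given with their ERSE in capitals. Herpud1 is given with its ERSE-II and its CARE in capitals, and Chac1 and Asns with their CARE in capitals; in Herpud1 and Chac1 the CARE lies on the opposite strand. The windows lie at chr2:34771840-34772139 (+) for Hspa5, chr12:17266339-17266638 (+) for Pdia6, chr8:94386179-94386478 (+) for Herpud1, chr2:119350992-119351291 (+) for Chac1 and chr6:7693160-7693459 (-) for Asns.
Hspa5: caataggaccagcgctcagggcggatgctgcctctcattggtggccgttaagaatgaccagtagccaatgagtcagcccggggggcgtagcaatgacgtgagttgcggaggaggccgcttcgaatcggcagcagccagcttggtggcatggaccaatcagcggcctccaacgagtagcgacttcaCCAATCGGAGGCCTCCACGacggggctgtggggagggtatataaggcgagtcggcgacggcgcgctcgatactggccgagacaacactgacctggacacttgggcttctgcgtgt
Pdia6: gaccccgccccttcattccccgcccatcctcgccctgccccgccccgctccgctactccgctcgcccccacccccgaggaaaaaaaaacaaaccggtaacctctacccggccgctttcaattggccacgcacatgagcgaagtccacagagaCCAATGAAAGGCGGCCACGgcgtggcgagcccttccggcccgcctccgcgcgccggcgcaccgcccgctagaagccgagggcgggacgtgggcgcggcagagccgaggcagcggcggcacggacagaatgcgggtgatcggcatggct
Herpud1: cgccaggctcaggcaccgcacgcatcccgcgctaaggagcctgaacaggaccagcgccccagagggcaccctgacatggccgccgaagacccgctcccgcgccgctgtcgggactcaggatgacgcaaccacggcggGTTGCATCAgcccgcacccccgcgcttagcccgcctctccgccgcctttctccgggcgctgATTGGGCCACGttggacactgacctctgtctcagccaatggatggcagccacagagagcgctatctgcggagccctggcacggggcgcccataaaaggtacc
Chac1: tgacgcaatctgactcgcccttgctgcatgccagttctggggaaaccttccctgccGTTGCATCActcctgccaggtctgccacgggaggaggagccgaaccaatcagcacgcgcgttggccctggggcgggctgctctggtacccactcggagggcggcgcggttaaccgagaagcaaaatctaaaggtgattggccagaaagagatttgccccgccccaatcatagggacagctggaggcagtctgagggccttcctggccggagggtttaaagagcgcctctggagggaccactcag
Asns: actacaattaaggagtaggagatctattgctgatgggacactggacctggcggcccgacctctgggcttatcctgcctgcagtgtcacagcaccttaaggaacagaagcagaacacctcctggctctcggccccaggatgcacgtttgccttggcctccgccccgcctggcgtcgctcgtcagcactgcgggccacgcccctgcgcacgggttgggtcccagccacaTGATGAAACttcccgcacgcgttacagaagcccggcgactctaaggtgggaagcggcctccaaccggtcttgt

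Of the other elements searched, the core bound by XBP1 (TGACGTGG, 0.676% of windows) and the cyclic AMP response element (TGACGTCA, 1.79%) were in none of the 10 windows. The core of the antioxidant response element, which NRF2 binds (TGACNNNGC), was in 3 of the 10, Asns, Sesn2 and Herpud1, and in 12.4% of all windows. A match describes letters in the window and not binding in these brains.

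The 10 genes are protein-coding genes on GRCm38, among them Hspa5 at chr2:34771970-34777547 (+), Xbp1 at chr11:5520659-5525893 (+), Herpud1 at chr8:94386438-94395377 (+), Ddit3 at chr10:127290774-127296288 (+) and Atf4 at chr15:80255184-80257541 (+). Their mean levels in brain ran from well below 1 TPM to nearly 100 TPM. In TPM, which are per length, Hspa5 was highest with a mean of 67.7 TPM over the AppNLGF cohort and 90.5 TPM over the APP/TAU cohort, above 94.3% and 96% of the genes tested. Atf4 followed with 50.8 and 57.2 TPM and Asns, which makes asparagine, with 45.6 and 50.1 TPM. The ranges of Atf4 and Asns overlapped across libraries. Xbp1, the factor spliced by IRE1, had 33.3 and 46.0 TPM, and Herpud1, a membrane protein of ER-associated degradation, 24.7 and 31.3 TPM. Ddit3 had 11.0 and 12.4 TPM. Chac1, which degrades glutathione, had 4.71 and 4.68 TPM, and Sesn2, a leucine sensor that restrains mTORC1, 4.36 and 5.78 TPM. Chac1 and Sesn2 changed places between the cohorts, and their values overlapped in each. Atf3, a stress-induced factor of the ATF family, had 0.78 and 0.73 TPM, and Trib3, a pseudokinase that CHOP and ATF4 induce, 0.31 and 0.46 TPM. Between groups Trib3 means lay between 0.275 and 0.349 TPM in the AppNLGF cohort and between 0.332 and 0.567 TPM in the APP/TAU cohort. It was listed at 0 in 1 2P-Im library and 1 vehicle library of the AppNLGF cohort. A second row that carries the symbol Ddit3 was listed at 0 in every library and was not used.

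Libraries differed in composition, which matters for every TPM. The gene rows held 88.5 to 91.4% of a library's TPM in the AppNLGF cohort, where transcript rows hold the rest, and 84.9 to 90.8% in the APP/TAU cohort, where what holds the rest is not known. A single gene row, ENSMUSG00000118866, took 15.5 to 40.0% of a library's TPM, and in the APP/TAU vehicle libraries 2 and 4 it took under 20%. Each fold was therefore also computed after median-ratio scaling, which sets the typical gene of every library to the same level. All 10 markers each of neurons, astrocytes and oligodendrocytes were above 0 in every library, as were those of microglia except 1 in the APP/TAU vehicle group. In the AppNLGF cohort 2P-Im libraries 1 and 2 had low marker sums, with 188 and 161 TPM for microglia, 948 and 964 TPM for astrocytes and 2207 and 2139 TPM for neurons. All of these lay below every vehicle library (at least 233, 1144 and 2322 TPM). Only for microglia were they alone in this. Library 5 also lay below every vehicle library for neurons (2147 TPM) and astrocytes (1130 TPM), and library 3 for astrocytes (1099 TPM). The abundant RNA took 40.0 and 39.3% of TPM in libraries 1 and 2, and 39.7% in library 5. Choroid plexus markers summed to 9.45 to 623 TPM in AppNLGF mice given 2P-Im, 7.68 to 693 TPM in those given vehicle and 492 to 741 TPM in their wild types. Xist was above 10 TPM in 7 of 13 AppNLGF libraries after 2P-Im, 5 of 11 after vehicle and 0 of 4 from wild types. In whole tissue, fewer cells of a type and less RNA per cell cannot be told apart. The part of these differences in the folds below was not tested unless a value is given.

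In AppNLGF mice given 2P-Im, Hspa5 was the gene with the lowest fold against vehicle and Ddit3 the one with the highest, and the other 6 tested genes lay close to 0. Hspa5 ranged from 42.3 to 75.3 TPM with a median of 66.3 TPM in the 13 2P-Im libraries, against 57.3 to 84.4 TPM with a median of 73.2 TPM in the 11 vehicle libraries. The groups overlapped, 2 of the 13 2P-Im libraries lay below all vehicle libraries and 2 lay above the vehicle median. The means were 64.0 ± 8.74 TPM after 2P-Im (SD, n = 13) and 72.9 ± 7.41 TPM after vehicle (SD, n = 11). The log2 fold was -0.19 with a 95% interval from -0.35 to -0.03 (limma, unadjusted p = 0.021, adjusted p = 0.769), and -0.15 from -0.27 to -0.02 after scaling (adjusted p = 0.30). It did not pass the test in either form. The lowest treated value was that of library 2, and without 2P-Im libraries 1 and 2 the deposited fold was -0.13 (unadjusted p = 0.0668).

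**Figure D1:**
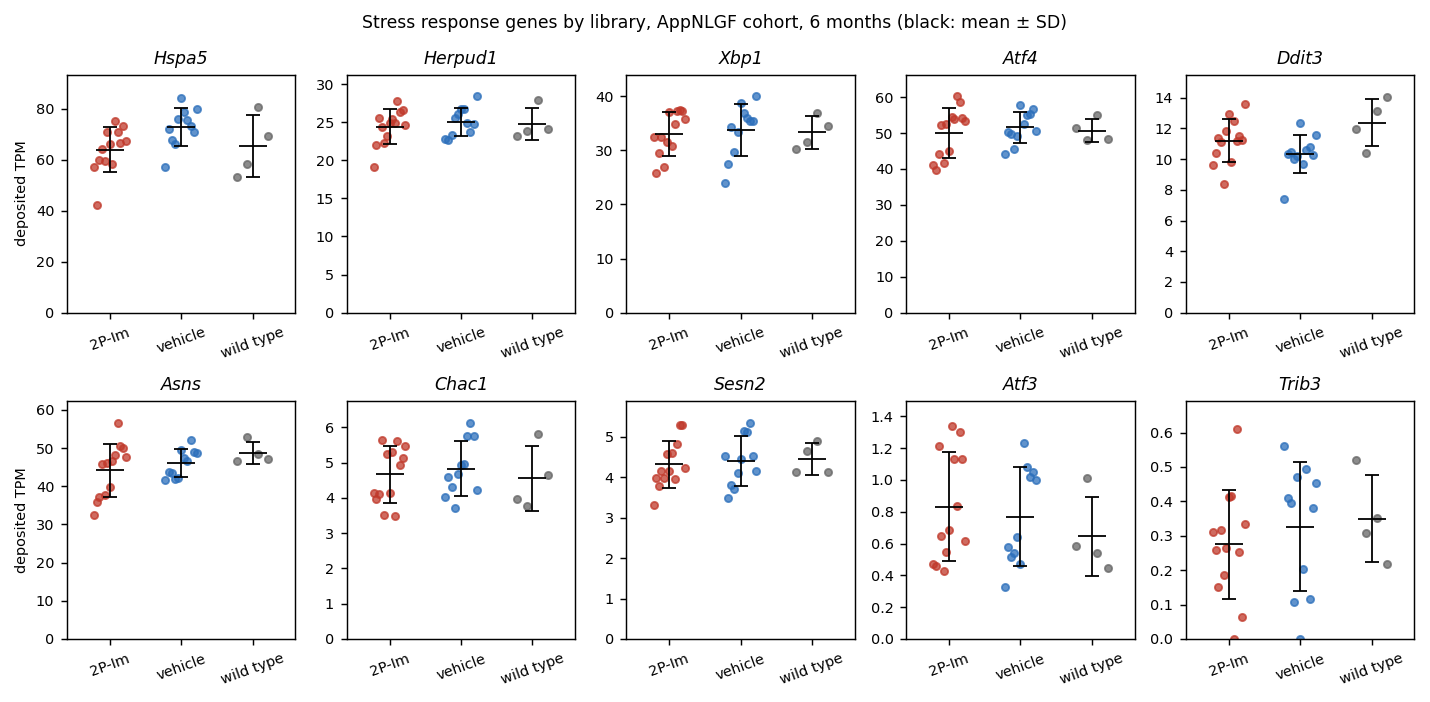
Deposited TPM of the 10 genes in each library of the AppNLGF cohort, after 2P-Im, after vehicle and in wild type, with the mean and SD in black. Groups overlap for every gene; Hspa5 means are 64.0, 72.9 and 65.2 TPM.

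Ddit3 had 8.38 to 13.6 TPM with a median of 11.2 TPM after 2P-Im, against 7.42 to 12.3 TPM with a median of 10.3 TPM after vehicle. Its log2 fold was 0.11 as deposited and 0.15 after scaling (95% interval 0.01 to 0.28, unadjusted p = 0.0347, adjusted p = 0.353). Atf4 averaged 50.1 ± 6.93 TPM after 2P-Im and 51.6 ± 4.45 TPM after vehicle, and Asns 44.2 ± 6.98 and 46.1 ± 3.64 TPM. For these 2 genes scaling narrowed the interval most, to a log2 difference between -0.06 and 0.05 for Atf4 and between -0.08 and 0.03 for Asns. Herpud1 averaged 24.4 ± 2.29 TPM after 2P-Im and 25.1 ± 1.85 TPM after vehicle, and its scaled interval ran from -0.09 to 0.09. Xbp1 averaged 33.0 ± 3.97 and 33.7 ± 4.85 TPM in the same order, with a scaled interval from -0.10 to 0.13. Chac1 averaged 4.67 ± 0.80 TPM after 2P-Im and 4.83 ± 0.778 TPM after vehicle, and Sesn2 4.31 and 4.39 TPM. Atf3 averaged 0.832 ± 0.343 TPM after 2P-Im and 0.770 ± 0.309 TPM after vehicle, below the filter.

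Of the 8 tested genes 0 were called in this comparison, while 0.0536% of all 16776 genes tested were called, and 0.286% after scaling. At an unadjusted p below 0.05 stood 1 of the 8 (lower) as deposited, where 6.18% of all genes did, and 2 after scaling (Hspa5 lower, Ddit3 higher), where 12.5% of all genes did. The median log2 fold of the 8 was -0.04 as deposited, as it was over all genes tested, and 0.00 after scaling. In the same libraries the NRF2 target Gstm1 averaged 168 ± 33.5 TPM after 2P-Im and 121 ± 16.5 TPM after vehicle, a log2 fold of 0.46 (adjusted p = 0.0604) that passed the test after scaling (0.50, adjusted p = 0.000104). Fos, an immediate early gene, averaged 14.8 ± 6.82 TPM after 2P-Im and 6.01 ± 1.70 TPM after vehicle and passed the test as deposited (log2 fold 1.09, adjusted p = 0.0232).

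Between AppNLGF and wild-type mice on vehicle, Ddit3 and Hspa5 stood at the ends again, with Ddit3 lowest and Hspa5 highest. Ddit3 had a median of 10.3 TPM in AppNLGF vehicle libraries, with a range from 7.42 to 12.3 TPM, against 12.0, 10.4, 13.1 and 14.0 TPM in the 4 wild-type libraries. None of the 11 AppNLGF libraries lay above the wild-type median and 6 of them lay below all 4 wild types. The log2 fold was -0.24 with a 95% interval from -0.44 to -0.04 (limma, unadjusted p = 0.0209, adjusted p = 0.944) and -0.21 after scaling (adjusted p = 0.63). Hspa5 averaged 72.9 ± 7.41 TPM in AppNLGF mice, against 53.1, 58.2, 80.6 and 69.2 TPM in the wild types. Its log2 fold was 0.17 as deposited (unadjusted p = 0.144) and 0.20 after scaling (95% interval 0.02 to 0.38, unadjusted p = 0.0307, adjusted p = 0.635). The same 11 vehicle libraries enter this comparison and the one of 2P-Im against vehicle, so the opposite signs of Hspa5 and of Ddit3 in the 2 comparisons are not independent of each other.

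The remaining 6 tested genes had log2 folds between -0.08 and 0.07 as deposited. Microglial markers summed to 233 to 343 TPM in AppNLGF vehicle libraries and 179 to 194 TPM in wild types, and 4 of 10 were called higher. Of the 8 genes 0 were called in AppNLGF vehicle against wild type, where 0.28% of all genes were called as deposited and 0.691% after scaling. At an unadjusted p below 0.05 stood 1 as deposited (lower) and 2 after scaling (Hspa5 higher, Ddit3 lower), against 4.16 and 7.05% of all genes. For 2P-Im-treated AppNLGF mice against wild type the count of calls was also 0 of 8, with 0.262 and 0.715% of all genes called. There Hspa5 averaged 64.0 ± 8.74 TPM in the treated mice and 65.2 ± 12.2 TPM in wild types, a log2 difference of -0.02 with an interval from -0.25 to 0.20. Asns averaged 44.2 ± 6.98 TPM in the treated mice and 48.8 ± 2.86 TPM in wild types. After scaling 11 of 13 treated libraries lay below all 4 wild types for Asns (log2 fold -0.08, limma, unadjusted p = 0.0339, adjusted p = 0.383). The share of all genes with so many libraries below the wild types was not counted. At an unadjusted p below 0.05 stood 11.6% of all genes in this scaled comparison.

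In APP/TAU mice given 2P-Im, the 3 genes of the ER arm, Hspa5, Xbp1 and Herpud1, had the lowest folds against vehicle of the 8 tested, in libraries where genes in general also lay lower as deposited. Hspa5 had 79.4, 92.6, 62.8, 68.9 and 57.3 TPM in the 5 2P-Im libraries, against 79.0, 119, 87.5, 117 and 86.9 TPM in the 5 vehicle libraries. The groups overlapped, with 3 of 5 treated libraries below every vehicle library. The log2 fold was -0.43 with a 95% interval from -0.79 to -0.08 (limma, unadjusted p = 0.0197, adjusted p = 0.167). Xbp1 had 44.1, 47.1, 31.9, 36.3 and 30.9 TPM after 2P-Im, against 42.4, 65.4, 44.9, 57.2 and 43.3 TPM after vehicle (log2 fold -0.40, unadjusted p = 0.0267, adjusted p = 0.168). Its groups overlapped, with 3 of 5 treated libraries below all vehicle libraries. Herpud1 had 28.9, 28.9, 27.1, 26.8 and 25.2 TPM after 2P-Im, against 32.3, 43.2, 31.0, 37.0 and 30.2 TPM after vehicle (log2 fold -0.32, unadjusted p = 0.0192, adjusted p = 0.167). As deposited the Herpud1 groups did not overlap, and the share of all genes with such groups was not counted. After scaling 2 of 5 treated libraries lay below all vehicle libraries.

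**Figure D2:**
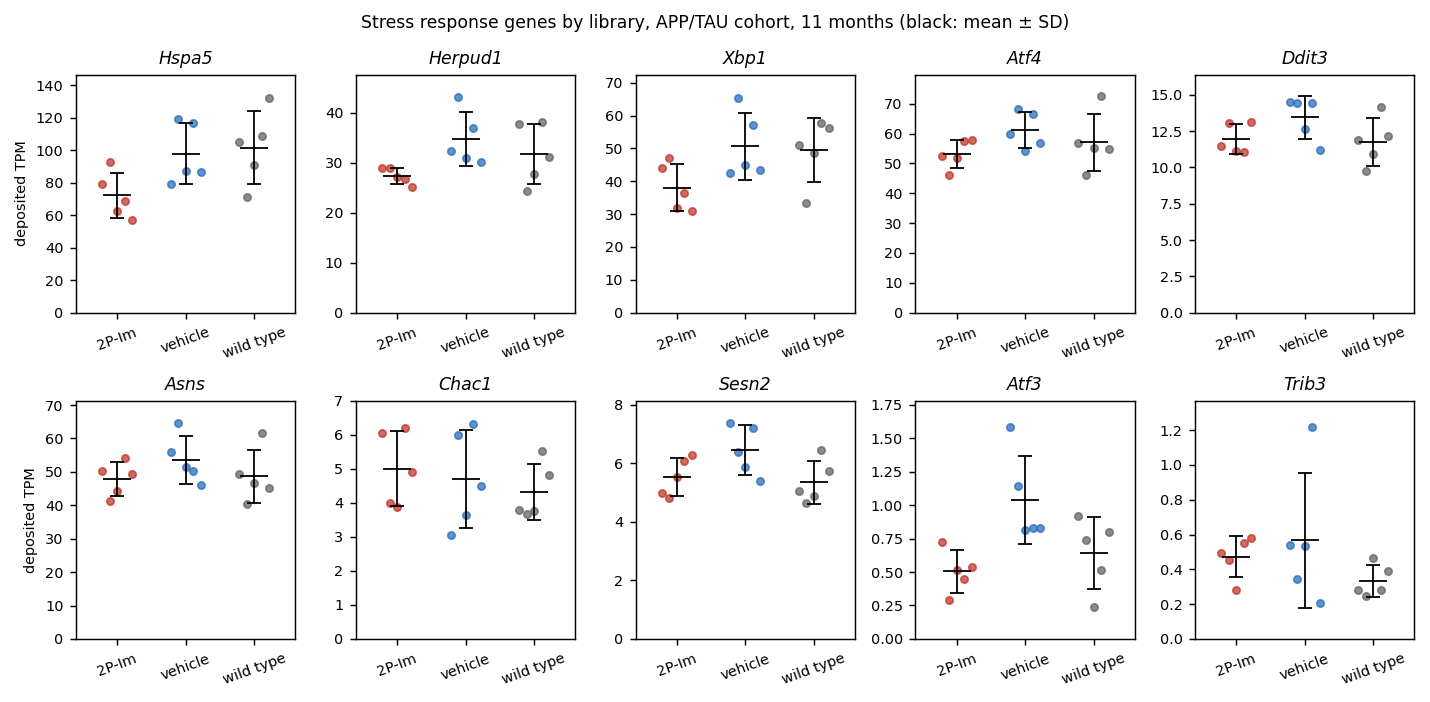
Deposited TPM of the 10 genes in each library of the APP/TAU cohort, after 2P-Im, after vehicle and in wild type, with the mean and SD in black. As deposited, all 5 treated libraries lie below all 5 vehicle libraries for Herpud1 and Atf3 only. The share of all genes with such groups was not counted, and 90.1% of all genes tested had a deposited fold below 0. After scaling (not shown), 2 of 5 do for Herpud1 and 4 of 5 for Atf3.

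In this comparison 90.1% of all 17592 genes tested had a deposited log2 fold below 0, with a median of -0.19, and the vehicle libraries 2 and 4, the highest for Hspa5, Xbp1 and Herpud1, are those with little of the abundant RNA. After scaling the median over all genes was 0.00 and the folds were -0.21 for Hspa5 (unadjusted p = 0.123), -0.18 for Xbp1 (p = 0.131) and -0.10 for Herpud1 (p = 0.153). Scaled Hspa5 was 85.1, 91.7, 70.7, 67.5 and 63.0 TPM after 2P-Im, against 69.4, 93.6, 89.4, 95.9 and 89.1 TPM after vehicle. Without vehicle libraries 2 and 4 the deposited fold of Hspa5 was -0.24 (unadjusted p = 0.201).

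Among the tested genes of the ATF4 arm, those other than Chac1 had scaled folds close to 0. Atf4 had 52.6, 46.3, 51.8, 57.7 and 57.7 TPM after 2P-Im, against 59.95, 68.1, 54.3, 66.5 and 57.0 TPM after vehicle, and its scaled log2 fold was 0.02 with a 95% interval from -0.12 to 0.16. Ddit3 had 11.1 to 13.1 TPM after 2P-Im and 11.2 to 14.5 TPM after vehicle (scaled fold 0.05). Asns had 41.3 to 54.3 TPM after 2P-Im and 46.0 to 64.8 TPM after vehicle (scaled fold 0.06). These 2 genes and Sesn2 (scaled fold 0.01) lay below vehicle as deposited and close to it after scaling. Chac1 was the only 1 of the 8 with a positive deposited fold, 0.09, and had 6.06, 3.99, 3.88, 6.21 and 4.91 TPM after 2P-Im, against 3.05, 6.00, 3.64, 6.32 and 4.49 TPM after vehicle. After scaling its fold was 0.28 (unadjusted p = 0.071, adjusted p = 0.595). Atf3, below the filter, had 0.727, 0.291, 0.518, 0.447 and 0.538 TPM after 2P-Im, against 1.58, 1.14, 0.816, 0.828 and 0.827 TPM after vehicle. Its groups did not overlap as deposited, and the share of all genes with such groups was not counted. After scaling 4 of 5 treated libraries lay below all vehicle libraries for Atf3. The Atf3 fold in the limma fit without a filter was -0.43 (unadjusted p = 0.00603, adjusted p = 0.259) and -0.33 after scaling (adjusted p = 0.706). Immediate early genes, which belong to the same signal-induced class as Atf3, summed to 269 to 316 TPM after 2P-Im, 348 to 522 TPM after vehicle and 277 to 427 TPM in wild types. Their part in the Atf3 values was not tested.

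Of the 8 tested genes 0 were called in APP/TAU mice after 2P-Im against vehicle, and so were 0% of all genes as deposited and 0.0114% after scaling. At an unadjusted p below 0.05 stood 3 of the 8 as deposited, all lower, and 26.8% of all genes. After scaling 0 of the 8 did, and 8.84% of all genes. The median log2 fold of the 8 was -0.19 as deposited, equal to that of all genes, and 0.02 after scaling.

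Against wild type, the direction of most folds in APP/TAU mice on vehicle depended on the scaling. Of the 8 tested genes 7 had a deposited log2 fold above 0, where 9.95% of all genes were below 0, and 7 had a scaled fold below 0, where 50.8% of all genes were. Hspa5 averaged 97.9 ± 18.7 TPM in APP/TAU vehicle libraries (SD, n = 5), against 105, 71.1, 90.8, 109 and 132 TPM in wild types. It is the 1 gene of the 8 below 0 in both forms, with a log2 fold of -0.04 as deposited and -0.25 after scaling (unadjusted p = 0.0733, adjusted p = 0.394). Sesn2 had 7.39, 6.39, 5.86, 7.19 and 5.397 TPM in APP/TAU mice, against 5.04, 4.65, 4.87, 6.44 and 5.72 TPM in wild types, with a log2 fold of 0.23 (unadjusted p = 0.0446, adjusted p = 0.201) and of 0.05 after scaling. Of the 8 genes 0 were called, with 0.0227% of all genes called as deposited and 0.0284% after scaling. At an unadjusted p below 0.05 stood 1 of the 8 (higher) as deposited, where 23.8% of all genes did, and 0 after scaling, where 14.2% did.

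For 2P-Im-treated APP/TAU mice against wild type the ER genes again had the lowest folds, and scaling moved them little. The deposited median over all genes, -0.01, was close to 0 here. Hspa5 averaged 72.2 ± 14.0 TPM in treated mice and 101.5 ± 22.6 TPM in wild types (SD, n = 5 each). The log2 fold was -0.48 as deposited (limma, unadjusted p = 0.0116, adjusted p = 1) and -0.46 after scaling, with a 95% interval from -0.74 to -0.19 (unadjusted p = 0.00294, adjusted p = 0.406). After scaling 4 of 5 treated libraries lay below all 5 wild types. Xbp1 averaged 38.1 ± 7.22 TPM in treated mice and 49.4 ± 9.73 TPM in wild types (scaled log2 fold -0.35, unadjusted p = 0.00809, adjusted p = 0.49). Herpud1 had a scaled fold of -0.18 (unadjusted p = 0.023, adjusted p = 0.576), with 3 of 5 treated libraries below all wild types. None was called, and 0.0227% of all genes were as deposited and 0.0284% after scaling. At an unadjusted p below 0.05 stood 2 of the 8 as deposited and 3 after scaling, all lower, against 2.16 and 7.83% of all genes.

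**Figure D3:**
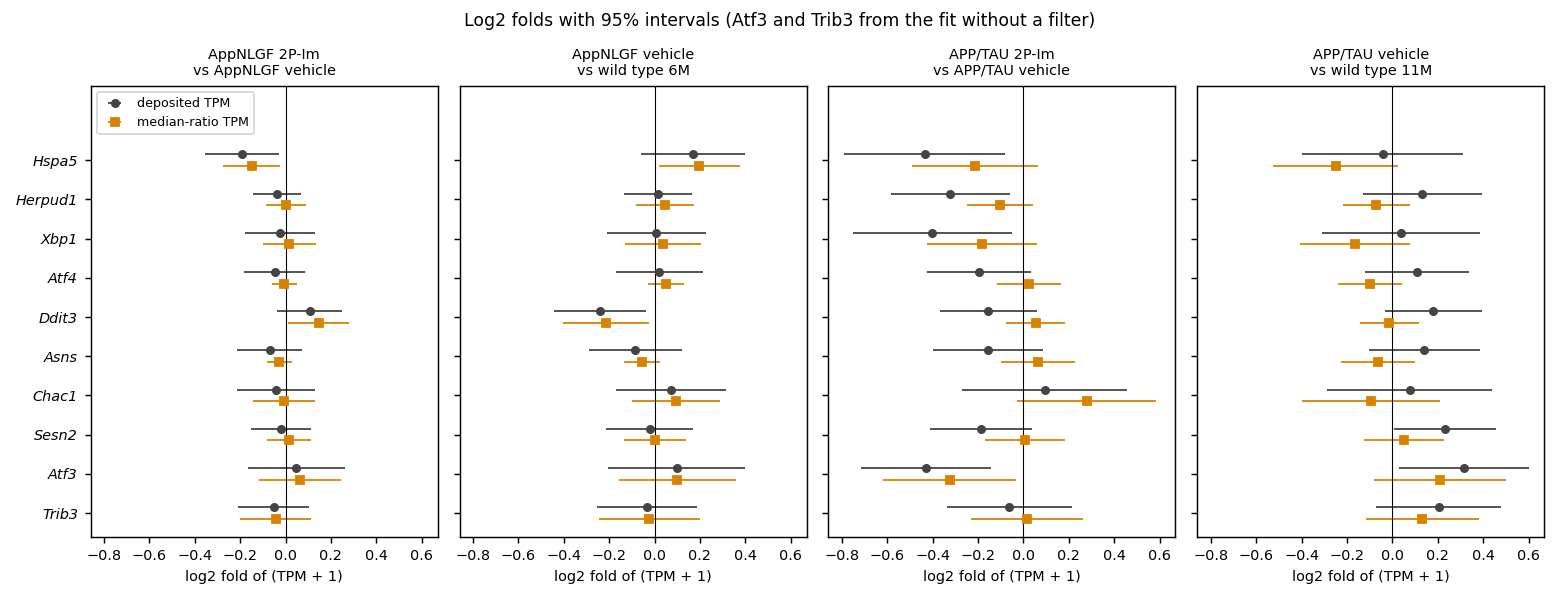
Log2 folds of log2(TPM + 1) with 95% intervals for the 10 genes in the comparisons of 2P-Im with vehicle and of vehicle with wild type, as deposited (dark circles) and after median-ratio scaling (orange squares). In the AppNLGF cohort the 2 forms lie together, and in the APP/TAU cohort the Hspa5 fold after 2P-Im is -0.43 as deposited and -0.21 after scaling.

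The difference between the cohorts was tested directly for each gene, as the fold in AppNLGF mice minus the fold in APP/TAU mice. For 2P-Im against vehicle 0 of the 8 were called, with 0.134% of 16418 genes called as deposited and 0.0731% after scaling. In this limma fit the deposited differences with an unadjusted p below 0.05 were those of Xbp1 (0.38, p = 0.0277), Herpud1 (0.28, p = 0.0192) and Ddit3 (0.26, p = 0.0434). Of all genes 16.2% had such a p as deposited, 15.9% with a difference above 0, and the median difference over all was 0.15. After scaling none of the 8 had such a p, where 11.5% of all genes did. The scaled difference for Hspa5 was 0.06 with an interval from -0.20 to 0.33. For vehicle against wild type 0 of the 8 were called, with 0.177 and 0.53% of all genes called. There the scaled log2 fold of Hspa5 was 0.20 in AppNLGF mice and -0.25 in APP/TAU mice, a difference of 0.45 with an interval from 0.14 to 0.75 (unadjusted p = 0.00485, adjusted p = 0.205). The scaled difference of Atf4 was 0.15 (limma, unadjusted p = 0.0405). Ddit3 differed by -0.42 as deposited (limma, unadjusted p = 0.00501, adjusted p = 0.142) and by -0.20 after scaling (unadjusted p = 0.11). As deposited 19.8% of all genes had an unadjusted p below 0.05, and the median difference over all was -0.21. After scaling 11.1% of all genes had such a p, and the median was 0.00.

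Within groups the genes of the ER arm varied together from library to library in both cohorts, which no group comparison uses. Over deviations of scaled log2(TPM + 1) from the group means, Pearson's r between Hspa5 and Xbp1 was 0.63 over 28 AppNLGF-cohort libraries and 0.91 over 15 APP/TAU-cohort libraries. Herpud1 had an r of 0.37 and 0.46 with Hspa5 and of 0.35 and 0.53 with Xbp1. Atf4 had an r of 0.55 and 0.40 with Chac1 and of 0.26 and 0.66 with Asns. Some pairs differed in sign between the cohorts: Hspa5 and Atf4 had 0.27 and -0.45, Ddit3 and Xbp1 0.62 and -0.11, and Ddit3 and Hspa5 0.50 and -0.06. In the AppNLGF cohort Ddit3 thus followed Hspa5 and Xbp1 more closely than Herpud1 did. These values share tissue sampling, library and scaling, and they are descriptions.

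**Figure D4:**
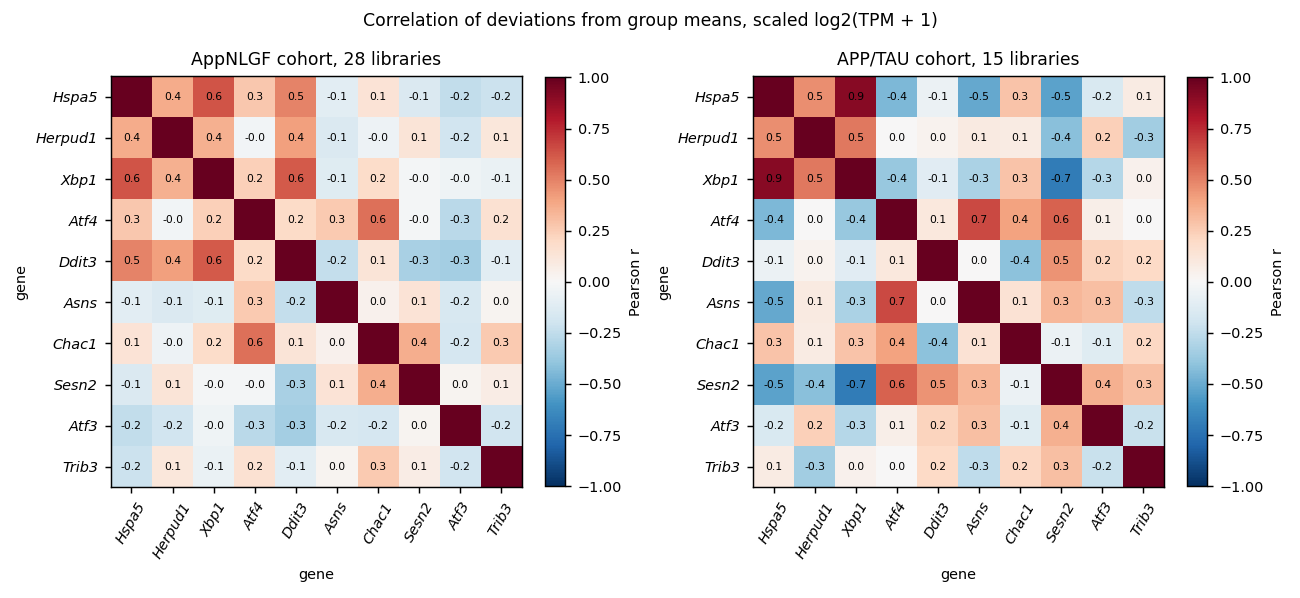
Pearson r between the 10 genes over deviations of scaled log2(TPM + 1) from the group means, for the 28 libraries of the AppNLGF cohort and the 15 of the APP/TAU cohort. Hspa5 and Xbp1 are the closest pair in both, at 0.63 and 0.91.

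Searched over all tested genes, the 3 genes most like Hspa5 by the mean r of the 2 cohorts were Sdf2l1 (0.84), Pdia6 (0.83) and Hyou1 (0.82), a cofactor, an isomerase and a chaperone of the ER. For Xbp1 they were Hspa5 (0.77), Pdia6 (0.71) and Zbtb40 (0.69). For Atf3 they included Nr4a3 (0.69), an immediate early nuclear receptor, and Mcl1 (0.66), behind Otud4 (0.71). Herpud1 was closest to the inducible cytosolic chaperone gene Hspa1a (0.64), Asns to Rab6a (0.72), Ddit3 to Asap1 (0.62) and Atf4 to Nudt3 (0.63). Chac1 was closest to Mpzl3 (0.63), Sesn2 to Etnppl (0.61) and Trib3 to Snord15a (0.63).

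Among the other genes of the 2 responses, the list of 22 ER chaperones and folding enzymes, all tested, had 0 called after 2P-Im against vehicle in AppNLGF mice and a median fold below that of all genes. Calr (calreticulin, a calcium-binding lectin chaperone) averaged 113 ± 16.4 TPM after 2P-Im and 132 ± 8.05 TPM after vehicle, a log2 fold of -0.24 (unadjusted p = 0.00266, adjusted p = 0.476). Hsp90b1, the ER form of HSP90, averaged 83.4 ± 12.1 TPM after 2P-Im and 94.8 ± 4.41 TPM after vehicle, with a fold of -0.20. Dnajc3, a co-chaperone of HSPA5, had a fold of -0.19 and Hyou1 of -0.14. Of the 22 genes 21 had a deposited fold below 0 and their median was -0.12, where 66.5% of all genes were below 0 and the median over all was -0.04. After scaling 19 of 22 were below 0 with a median of -0.08, and the lowest adjusted p, that of Hsp90b1, was 0.0592. In the same scaled comparison 8 of 10 microglial markers were below 0 with a median of -0.10, and 8 of 10 astrocyte markers with a median of -0.06. Their part in the chaperone values was not tested. In AppNLGF vehicle against wild type the scaled median was 0.10, with 17 of 22 above 0 and 0 called, and the vehicle libraries are again shared. Of the 17 list members with a promoter window 7, among them Calr, Hsp90b1 and Dnajc3, held the ERSE that Hspa5 also holds.

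In the APP/TAU cohort the same 22 genes had a scaled median log2 fold of -0.02 after 2P-Im against vehicle, with 13 below 0. In APP/TAU vehicle against wild type it was -0.16, with 21 below 0, where 50.8% of all genes were, and 8 of them at an unadjusted p below 0.05, where 7.13% of all genes were lower at that p. The deposited median was 0.04 with 16 above 0 and the median over all genes 0.18. The sign of that median thus depends on the scaling. In treated APP/TAU mice against wild type it was -0.14 as deposited and -0.13 after scaling, with 21 and 20 of 22 below 0. There Creld2, a secreted ER stress protein, averaged 5.84 ± 1.17 TPM in treated mice and 8.90 ± 2.44 TPM in wild types (log2 fold -0.51, unadjusted p = 0.00961, adjusted p = 1). Manf, a neurotrophic ER protein, averaged 22.1 ± 4.31 TPM in treated mice and 31.0 ± 7.39 TPM in wild types. None of the 22 was called in any of the 6 comparisons, in either form.

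**Figure D5:**
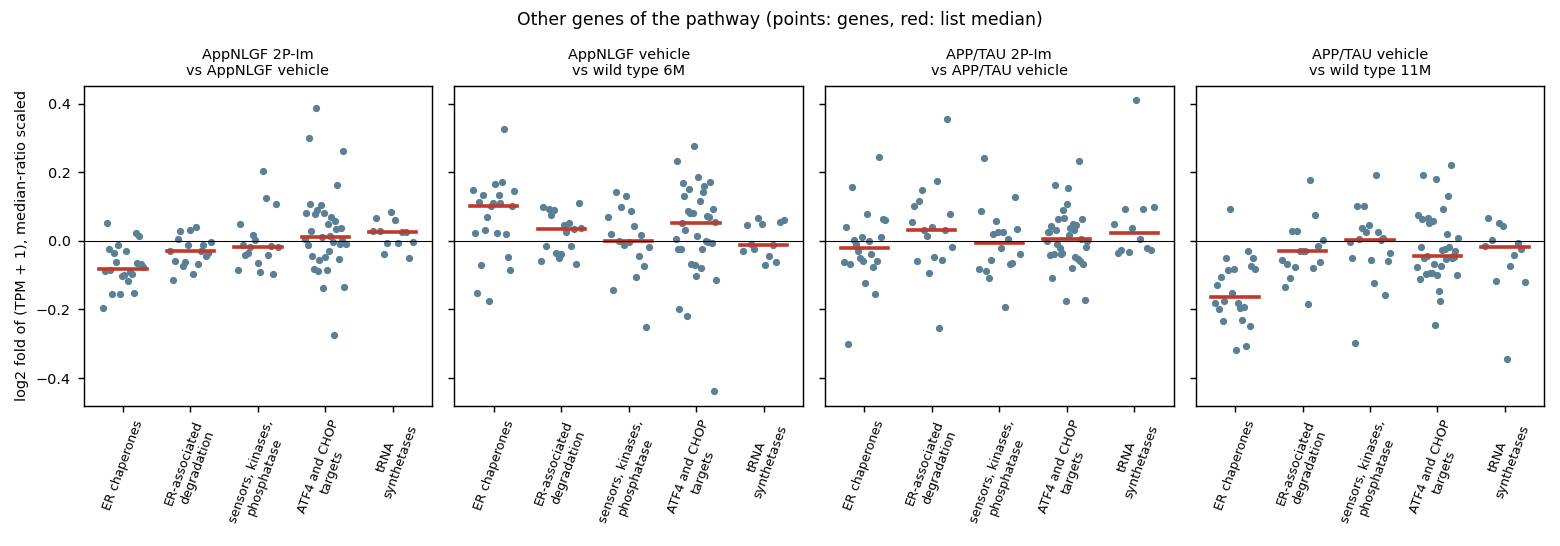
Scaled log2 folds of the tested genes of 5 other lists of the pathway in 4 comparisons, with a red line at each list's median. The ER chaperone medians are -0.08, 0.10, -0.02 and -0.16 from left to right, and in the last panel 21 of its 22 genes lie below 0.

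The other 4 lists had 0 called genes in each of the 6 comparisons in both forms. In AppNLGF mice after 2P-Im the 35 tested targets of ATF4 and CHOP had a scaled median log2 fold of 0.01, with 20 above 0. Among them Slc38a2, an amino acid transporter, averaged 32.0 ± 4.80 TPM after 2P-Im and 40.2 ± 7.49 TPM after vehicle (deposited log2 fold -0.31, unadjusted p = 0.00122, adjusted p = 0.39). Ddit4, an inhibitor of mTORC1, averaged 24.5 ± 5.23 TPM after 2P-Im and 19.1 ± 5.01 TPM after vehicle (0.35, adjusted p = 0.666). The 12 aminoacyl tRNA synthetases, many of them ATF4 targets, had a scaled median of 0.03, and the 17 tested genes of ER-associated degradation one of -0.03. The 17 tested sensors, eIF2α kinases and phosphatase genes had one of -0.02. Among them Ern1, which encodes IRE1α, averaged 4.85 ± 0.969 TPM after 2P-Im and 4.17 ± 0.552 TPM after vehicle (deposited log2 fold 0.17, unadjusted p = 0.04, adjusted p = 0.778). In AppNLGF vehicle against wild type, Trib1, a relative of Trib3, averaged 4.79 ± 0.713 TPM in AppNLGF mice and 7.06 ± 1.63 TPM in wild types (log2 fold -0.47, adjusted p = 0.0779). Ppp1r15a, the stress-induced subunit of the eIF2α phosphatase, averaged 4.33 ± 0.564 TPM in AppNLGF mice and 5.43 ± 0.415 TPM in wild types (-0.28, adjusted p = 0.427).

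The AppNLGF table also lists single transcripts, and 22 of them belong to these genes. Gene rows and transcript rows together sum to 100% of a library's TPM, so the gene rows do not include them. All 22 lie outside the basic set of GENCODE M21, which leaves out most transcripts annotated as incomplete or non-coding, such as those with a retained intron. For Hspa5 they held 22.8 ± 3.67% of the summed TPM after 2P-Im, 19.7 ± 2.71% after vehicle and 18.5 ± 3.01% in wild types (SD). For Herpud1 the shares were 15.4, 10.5 and 12.3% in the same order, for Xbp1 13.4, 11.1 and 11.2%, and for Asns 9.18, 7.12 and 4.12%. The log2 ratio of transcript rows to the gene row after 2P-Im against vehicle was 0.25 for Hspa5 (unadjusted p = 0.0370, adjusted p = 0.391) and 0.49 for Herpud1 (unadjusted p = 0.0222, adjusted p = 0.336). The ratio was fitted for 8457 genes whose transcript rows and gene row both averaged at least 1 TPM, 6 of the 10 among them, and was above 0 for all 6 while 32.6% of the 8457 genes were below 0. Of these 6 genes 0 were called in any comparison, with 0.426% of all genes called after 2P-Im against vehicle, 0% in vehicle against wild type and 0% in 2P-Im against wild type. After 2P-Im against vehicle 11.8% of the 8457 genes had an unadjusted p below 0.05 in this limma fit. The median log2 ratio over all 8457 was 0.08.

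The Hspa5 transcript row with the highest fold after 2P-Im against vehicle was Hspa5-206, annotated with a retained intron, with 3.44 ± 1.34 TPM after 2P-Im and 1.64 ± 1.52 TPM after vehicle. Its log2 fold was 0.91 (unadjusted p = 0.00227, adjusted p = 0.372). The groups overlapped, with 3 of 13 treated libraries above all 11 vehicle libraries; against the 4 wild types, 11 of 13 lay above all. Fitted together with gene rows, 0 member transcripts were called in the 3 comparisons, where 0.0159, 0.103 and 0.0872% of 37852 rows were. Hspa5-204, annotated as a target of nonsense-mediated decay, averaged 12.2 TPM after 2P-Im, 14.6 TPM after vehicle and 11.2 TPM in wild types. For Xbp1 the smallest annotated intron among its 4 transcripts is 300 bases, far longer than the short stretch that IRE1 removes, so neither table separates spliced from unspliced Xbp1.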

How the data were processed

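Brain RNA of 43 mouse libraries was sequenced. The authors deposited TPM per gene, made with Salmon on GRCm38 (mm10) per the submitters' processing notes, and for the AppNLGF cohort also per transcript. TPM scale each library to a fixed total, of which gene rows hold a part, and keep no depth, so no counting interval can be given. Symbols were matched to Ensembl identifiers, and positions are those of GENCODE M21.

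The genes, lists and named genes were chosen with earlier results of these data known. Up to 4 genes per list and comparison, those with the smallest p, could be named. log2(TPM + 1) of genes with a mean of at least 1 TPM (16776 and 17592) was fitted with limma 3.58.1 in R 4.3.3, with 1 mean per group, a variance trend, two-sided tests and Benjamini-Hochberg adjustment over all genes tested. Calls needed an adjusted p below 0.05. The fold understates the change of low genes. Median-ratio scaling was run beside the deposited values. The code was tested on simulated data.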

Additional observations from a re-analysis of the deposited data

How the results depend on the processing

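The count of called genes among the 8 tested stayed at 0 under every alternative run in 5 of the 6 comparisons and in both differences between cohorts. The exception was 2P-Im-treated AppNLGF mice against wild type. A replicate block takes the shared replicate number as a term. Between same-numbered libraries the r of deviations ran from -0.079 to 0.118. In the exception 3 of 4 shared numbers matched best with themselves, and 3 of 5 in treated APP/TAU mice against wild type. In the other comparisons 2 of 11, 0 of 4, 1 of 5 and 1 of 5 did. With the block 1 of the 8 was called in the exception, Asns (-0.33, limma, adjusted p = 0.0259), together with 19.2% of all genes. With a term for replicate numbers up to 5 or higher 2 were called, Asns (-0.32, adjusted p = 0.00684) and Ddit3 (-0.25, adjusted p = 0.0443), together with 30.7% of all genes. The share of the abundant RNA also differed by number in the AppNLGF vehicle group, which is not part of the exception. There it was 34.4 to 38.0% in libraries 1 to 5 and 29.1 to 33.1% in 6 to 11. In the 2P-Im group the ranges overlapped, with 32.5 to 40.0% in libraries 1 to 5 and 28.3 to 37.2% in 6 to 13. The wild types, numbered 1 to 4, had 30.7 to 33.7%. The 2 terms also called 22 and 40 other genes of the pathway there, and with median-ratio scaling either called 0 of the 8. In AppNLGF vehicle against wild type the replicate block called Ppp1r15a (-0.40, limma, adjusted p = 0.0432), together with 0.173% of all genes. The number term called Ppp1r15a (-0.37, adjusted p = 0.0213) and Trib1 (-0.52, adjusted p = 0.0319) in that comparison, together with 1.2% of all genes. Leaving out each library in turn called 0 to 0 of the 8 in every comparison, and 0 to 1 other genes of the pathway in AppNLGF vehicle against wild type (Trib1, -0.50, without vehicle library 6). In APP/TAU vehicle against wild type scaling moved the median of all genes from 0.18 to 0.00 and turned 6 of the 8 genes below 0: Ddit3 (-0.013), Atf4 (-0.098), Xbp1 (-0.17), Chac1 (-0.094), Asns (-0.064) and Herpud1 (-0.071, and -0.10 also without vehicle libraries 2 and 4, against 0.13 as deposited), and, among other genes of the pathway, Ssr1 (-0.050, likewise with the replicate block) and Ero1a (-0.049, likewise with the replicate block, and -0.055 without vehicle libraries 2 and 4). Hspa5 after 2P-Im against vehicle ran from -0.23 to -0.11 over 47 settings in AppNLGF mice, with a lowest adjusted p of 0.165, and from -0.53 to -0.13 over 27 in APP/TAU mice. Calr and Hsp90b1 were called after 2P-Im against vehicle in AppNLGF mice with a term for Xist and scaling (-0.20 and -0.16, limma, adjusted p = 0.0467 and 0.0362). That setting called 0.525% of all genes. Alternatives on vehicle libraries 2 and 4, transcript rows and number ranges were chosen after seeing the data. Depth is unknown.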
